A study of Saccharomyces cerevisiae with 12 samples.

Results

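The genes described are the 5 yeast genes of L-serine synthesis and breakdown, SER3 (YER081W), SER33 (YIL074C), SER1 (YOR184W), SER2 (YGR208W) and CHA1 (YCL064C), out of 5994 open reading frames in the table. They were chosen by pathway and by their mutant over wild type ratios on these same arrays, on which SER3 was seen to be higher and CHA1 lower. Those ratios are therefore given as a description, with no test. All 5 were measured on all 12 arrays.

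The arrays compared a hal4hal5 mutant of Saccharomyces cerevisiae with its wild type, each array carrying RNA of both strains in different dyes. The mutant lacks HAL4 (named SAT4 in RefSeq) and HAL5, 2 related protein kinases that promote potassium uptake. All cultures were in YPD, and the 3 groups of 4 arrays are W303 cells at pH 6.0, W303 cells at pH 4.5 and BY4741 cells at pH 4.5. The wild type of each group is of the same background and medium as the mutant. YPD is a rich glucose medium that supplies amino acids, and cells were in log phase at 28 °C. The labels do not say how many mutant clones were used or which marker genes replaced the kinase genes. A ratio of 2 cultures does not tell whether all cells changed or only some.

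Yeast makes serine from the glycolytic intermediate 3-phosphoglycerate. Ser3 and Ser33 are paralogous 3-phosphoglycerate dehydrogenases for the first step, Ser1 is the phosphoserine transaminase of the next step, and Ser2 is the phosphoserine phosphatase that releases serine. Cha1 is the mitochondrial deaminase that breaks serine and threonine down to a keto acid and ammonia, which lets cells use them as nitrogen sources. In cells given serine, the activator Cha4 is known to turn on CHA1 and also SRG1, a noncoding transcript that runs across the SER3 promoter and keeps SER3 repressed. When serine is scarce, CHA1 and SRG1 are off and SER3 is on.

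The values are log2 ratios of the mutant over the wild type, so that 1 is a doubling and -1 a halving. The base of the logarithm was inferred from the range of the values. If it were the natural logarithm, each fold below would be larger. Arrays held 4418 to 5696 values, and their medians lay between -0.035 and 0.029. The sign was turned where the mutant was in Cy3, taking Cy5 over Cy3 as deposited. That choice rests on the deleted genes, which were lower in the mutant on most arrays. SAT4 had a mean of -0.46 at pH 6.0 in W303 (adjusted p = 0.56), or -0.03 without replicate 3. It had a mean of -0.17 at pH 4.5 in W303 (adjusted p = 0.028) and stood at -0.73 and -0.96 on 2 BY4741 arrays, the others there having no value. HAL5 had means of -0.03 (n = 3, adjusted p = 0.94), -0.10 (adjusted p = 0.48) and -0.51 (adjusted p = 0.027) in W303 at pH 6.0, W303 at pH 4.5 and BY4741. With Cy3 over Cy5 every direction below would turn. The array of W303 pH 6.0 replicate 3 stood apart from its group, with a mean correlation across genes of 0.186 with the other 3 arrays and the fewest values, so values at pH 6.0 that rest on it are also given without it. Of 67 other genes around serine metabolism tested at pH 6.0, 9 had a mean of the other sign without it, and 0 of these were among the 6 that passed the test. All 6 passed without it too.

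SER3, the gene for the first enzyme of the pathway, had the highest ratio of the 5 genes in every group. Its log2 ratios in W303 at pH 6.0 were 1.90, 1.76, 1.39 and 1.61 in replicates 1 to 4, a mean of 1.67 ± 0.22 (SD, n = 4), or 3.17-fold. At pH 4.5 in W303 they were 1.03, 1.07, 1.17 and 1.16, with a mean of 1.11 ± 0.068 (SD, n = 4), or 2.16-fold. In BY4741 at pH 4.5 they were 1.67, 1.58, 1.57 and 1.61, with a mean of 1.61 ± 0.043 (SD, n = 4), or 3.05-fold. SER3 was above 0 on all 12 arrays, and all 4 arrays of W303 at pH 4.5 lay below every array of the other groups. Ranked among the genes measured on 3 or more arrays, its mean was 15 from the top of 4856 in W303 at pH 6.0, 208 of 5501 in W303 at pH 4.5 and 18 of 5461 in BY4741. By dye orientation, arrays with the mutant in Cy5 and in Cy3 averaged 1.69 and 1.64 at pH 6.0, 1.12 and 1.07 in W303 at pH 4.5, and 1.62 and 1.60 in BY4741.

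SER33, the paralog of SER3, had ratios in the same direction on 11 of 12 arrays but closer to 0. W303 cells at pH 6.0 gave log2 ratios of 0.48, -0.09, 0.29 and 0.56, with a mean of 0.31 ± 0.29 (SD, n = 4). W303 cells at pH 4.5 gave 0.54, 0.71, 0.53 and 0.58, with a mean of 0.59 ± 0.085 (SD, n = 4), or 1.51-fold. In BY4741 they were 0.56, 0.64, 0.43 and 0.67, with a mean of 0.57 ± 0.11 (SD, n = 4), or 1.49-fold. The 3 groups overlapped. The difference SER3 minus SER33 on the same array was above 0 on every array, averaging 1.35 ± 0.37 in W303 at pH 6.0, 0.52 ± 0.12 in W303 at pH 4.5 and 1.04 ± 0.11 in BY4741 (SD, n = 4 each). SER3 and SER33 have coding regions of the same length, 1410 bases in RefSeq R64, and encode closely similar proteins. The probe sequences were not used here, so the share of each signal that comes from the paralog cannot be told apart, and both single values are uncertain.

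SER1 and SER2, the genes for the later steps of serine synthesis, had ratios below 0 at pH 4.5, opposite to SER3 and SER33. SER1 was at -0.03, 0.01, 0.07 and -0.02 in W303 at pH 6.0, a mean of 0.0065 ± 0.047 (SD, n = 4). At pH 4.5 it was, in W303, at -0.51, -0.22, -0.41 and -0.36, a mean of -0.38 ± 0.12 (SD, n = 4). In BY4741 it was at -0.21, -0.56, -0.46 and -0.45, a mean of -0.42 ± 0.15 (SD, n = 4). The 4 pH 6.0 arrays of SER1 stayed within 0.073 of 0 and lay above all 8 arrays at pH 4.5, while the 2 backgrounds at pH 4.5 overlapped.

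SER2 was at -0.36, -0.39, 0.48 and -0.54 in W303 at pH 6.0, a mean of -0.20 ± 0.46 (SD, n = 4), and its 1 value above 0 came from replicate 3. Without that array the mean was -0.43. The W303 values at pH 4.5 were -0.91, -0.86, -0.70 and -0.78, with a mean of -0.81 ± 0.092 (SD, n = 4), which is 1.76-fold lower in the mutant. In BY4741 they were -0.48, -0.32, -0.52 and -0.39, with a mean of -0.43 ± 0.089 (SD, n = 4), or 1.34-fold lower. All 4 arrays of W303 at pH 4.5 lay below the other 8 arrays.

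CHA1, the breakdown gene, had the lowest ratio of the 5 genes in every group. The W303 arrays at pH 6.0 gave -2.81, -3.56, 0.45 and -2.73 in replicates 1 to 4, a mean of -2.16 ± 1.78 (SD, n = 4). Replicate 3 was the only 1 of the 12 arrays with CHA1 above 0, and without it the mean was -3.03. Those at pH 4.5 gave -2.04, -1.72, -1.64 and -1.96, with a mean of -1.84 ± 0.19 (SD, n = 4), or 3.59-fold lower. In BY4741 they were -1.27, -1.33, -1.64 and -1.52, with a mean of -1.44 ± 0.17 (SD, n = 4), or 2.71-fold lower. The arrays of the 2 backgrounds at pH 4.5 only just failed to overlap, with the highest W303 array at -1.640 and the lowest BY4741 array at -1.635. The mean ranked 2 from the bottom of 4856 genes in W303 at pH 6.0, 12 of 5501 in W303 at pH 4.5 and 11 of 5461 in BY4741. The pH 6.0 arrays averaged -3.14 with the mutant in Cy5 and -1.18 with the mutant in Cy3, the orientation of replicate 3.

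**Figure D1:**
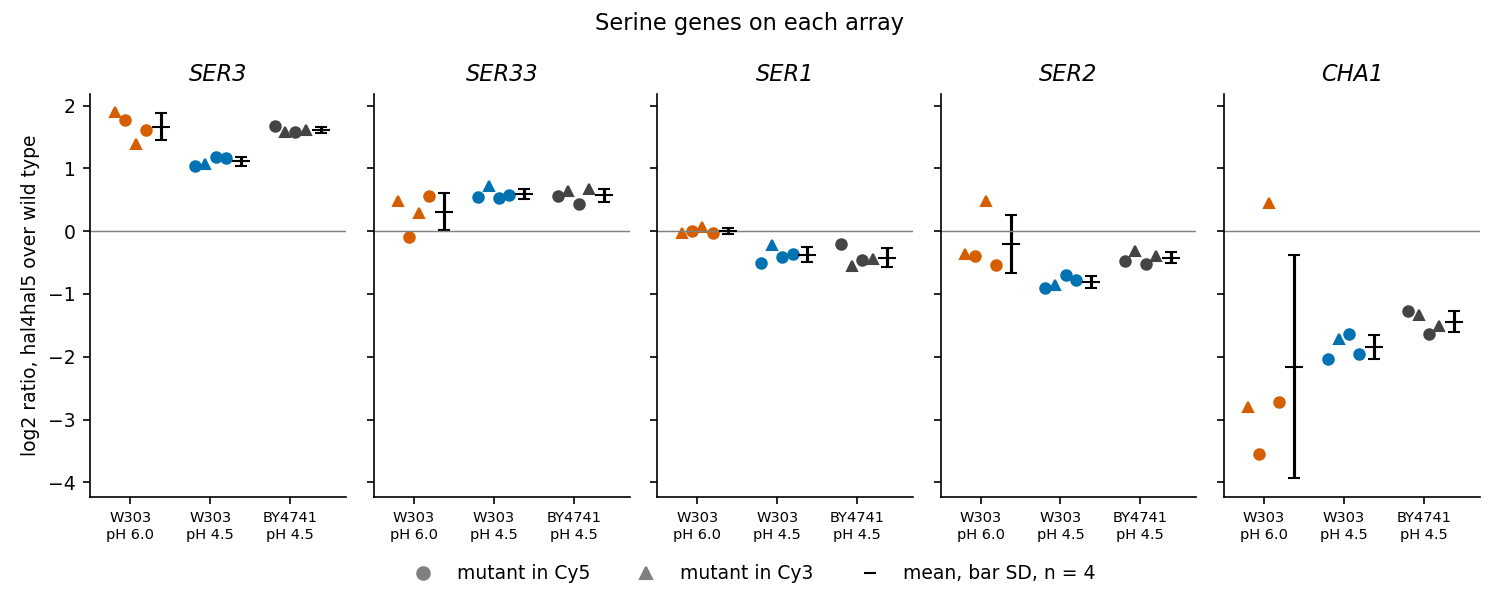
Log2 ratio of the hal4hal5 mutant over the wild type (y axis) for the 5 serine genes on each of 12 arrays, in W303 at pH 6.0, W303 at pH 4.5 and BY4741 at pH 4.5. Circles are arrays with the mutant in Cy5 and triangles arrays with the mutant in Cy3, and the black marks give the mean with the SD (n = 4). SER3 is above 0 on all 12 arrays and CHA1 below 0 on 11, the exception being W303 pH 6.0 replicate 3.

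SER3 and CHA1 stood far apart on the same arrays. The difference SER3 minus CHA1 averaged 3.83 ± 1.97 in W303 at pH 6.0, 2.95 ± 0.17 in W303 at pH 4.5 and 3.05 ± 0.14 in BY4741 (SD, n = 4 each). At pH 4.5 its range was 2.80 to 3.12 in W303 and 2.91 to 3.21 in BY4741, so the 2 backgrounds overlapped in this distance although they did not overlap in SER3 or in CHA1. At pH 6.0 the differences were 4.70, 5.32, 0.94 and 4.34, with replicate 3 far below the others. The pair thus had opposite signs on 11 of 12 arrays. That is the pattern for which the genes were chosen, and no test was run on it.

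**Figure D2:**
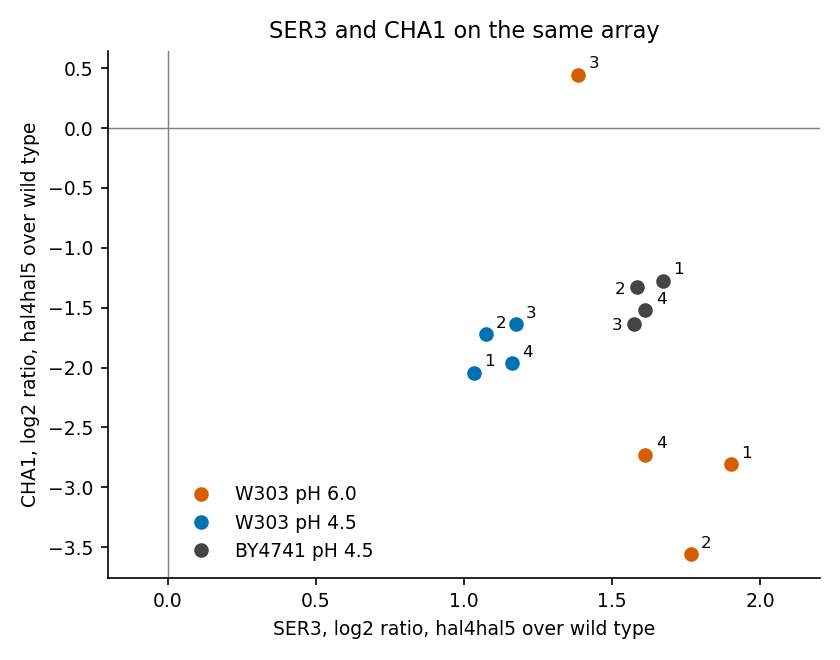
Log2 ratio of SER3 (x axis) against that of CHA1 (y axis), mutant over wild type, with 1 point for each of 12 arrays, labelled with its replicate number and coloured by group. All points but 1 lie in the lower right part, with SER3 above 0 and CHA1 below 0. The exception is W303 pH 6.0 replicate 3 at 1.39 and 0.45.

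Counted over the pathway, 1 of 5 genes had a single sign on every array in W303 at pH 6.0, where 32.5% of 4856 genes did. Without replicate 3 it was 3 of 5, SER3, SER2 and CHA1, where 49.2% of 4437 genes did. At pH 4.5 in W303 it was 5 of 5, where 72.9% of 5501 genes did, and in BY4741 5 of 5, where 50.7% of 5461 genes did. Between pH 6.0 and pH 4.5 in W303, the arrays of the 2 groups did not overlap for SER1, SER2 and SER3, which is 3 of 5 genes against 26.3% of 4840 genes, and SER1 and SER2 were nearer 0 and SER3 further from 0 at pH 6.0. Without replicate 3 CHA1 joined them, further below 0 at pH 6.0, which made 4 of 5 genes against 37.5% of 4426 genes. Between W303 and BY4741 at pH 4.5 there was no overlap for SER2, SER3 and CHA1, again 3 of 5, against 37.2% of 5278 genes. In W303, SER2 and CHA1 lay further below 0 and SER3 nearer to 0 than in BY4741. For CHA1 this order of the means turned when the arrays were scaled to 1 spread, as given below. The W303 arrays at pH 4.5 enter both of these comparisons.

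Genes next to SER3 and CHA1 had ratios nearer 0 than theirs in every group with a mean. In RefSeq R64 the gene before SER3 on chromosome V is SRG1, the noncoding RNA, which overlaps the start of SER3 and has no row among the open reading frames analysed here. UTP7, on the other side and needed for ribosome synthesis, had means of -0.31 in W303 at pH 6.0 (adjusted p = 0.64, or 0.06 without replicate 3), -0.39 in W303 at pH 4.5 (adjusted p = 3.8e-04) and -0.03 in BY4741 (adjusted p = 0.82) by limma (n = 4 each). Next to CHA1 on chromosome III lies VAC17, a gene for vacuole inheritance, with means of -0.13 in W303 at pH 6.0 (adjusted p = 0.54), 0.71 in W303 at pH 4.5 (adjusted p = 1.3e-04) and -0.08 in BY4741 (adjusted p = 0.60). On its other side, HMLALPHA1 of the silent mating cassette was measured on only 1 array, at 0.04 in BY4741. CHA4, the gene of the activator, was not analysed here.

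The 5 genes with the pattern most like SER3 were taken by the mean absolute difference of the log2 ratio over 12 arrays, among 3673 genes measured on every array. They were RNH201, for a ribonuclease H subunit (0.43), CAR2, for ornithine transaminase (0.45), ODC2, for a mitochondrial oxodicarboxylate carrier (0.48), ATP7, for an ATP synthase subunit (0.48), and INH1, for an ATP synthase inhibitor (0.49). None was close: a difference of 0.43 is larger than the SD of SER3 in any group. At pH 6.0 the means of the 5 genes were 0.65 to 1.33, below the SER3 mean of 1.67. Without replicate 3 they were 0.62 to 1.68, the highest being that of ODC2, beside 1.76 for SER3. In BY4741 the means of the 5 genes were 0.75 to 1.32, below 1.61. They were 0.96 to 1.37 in W303 at pH 4.5, around the SER3 mean of 1.11.

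For CHA1 the nearest patterns were those of ARO9, for an aromatic aminotransferase (0.66), LEU1, of leucine synthesis (0.67), OAC1, for a mitochondrial oxaloacetate carrier (0.72), BAT1, for a branched-chain aminotransferase (0.78), and BAP2, for a branched-chain amino acid permease (0.88). All 5 differences were larger than those of the 5 genes nearest SER3. Their means in W303 at pH 4.5 were -2.39 to -1.51 around the CHA1 mean of -1.84, and in BY4741 they were -2.26 to -1.11 around -1.44. At pH 6.0 they were -2.34 to -1.35, beside -2.16 for CHA1. Without replicate 3 they were -2.33 to -1.31, all nearer 0 than the CHA1 mean of -3.03. On W303 pH 6.0 replicate 3, where CHA1 stood at 0.45, the 5 genes stood at -2.70 to -1.16.

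**Figure D3:**
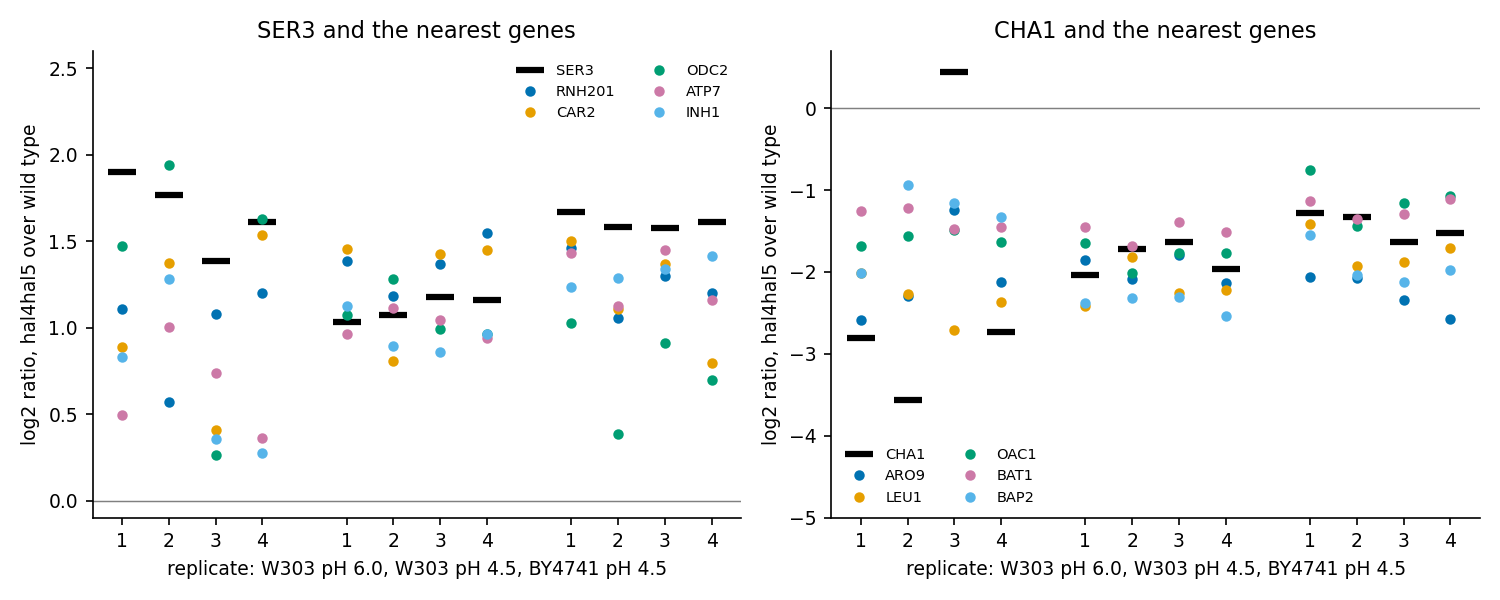
Log2 ratio, mutant over wild type (y axis), of SER3 (left) and CHA1 (right) as black bars and of the 5 genes nearest to each in mean absolute difference as coloured points, by replicate within W303 pH 6.0, W303 pH 4.5 and BY4741 pH 4.5. On W303 pH 6.0 replicate 3 CHA1 stands at 0.45 and its nearest genes between -2.70 and -1.16.

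Genes around serine metabolism were tested with limma in the whole table, in 8 lists of 74 genes in all, 72 of them measured. Adjusted p-values are Benjamini-Hochberg ones over all genes, and a gene below 0.05 was called. In W303 at pH 6.0, 6 of 67 tested genes were called, or 8.96%, beside 3.36% of all 4856 genes (1.92% higher and 1.44% lower). Leaving out replicate 1, 2 or 4 left 0 by limma, with 12, 23 and 15 at an unadjusted p below 0.05. Leaving out replicate 3 gave 8, beside 6.06% of 5267 genes. Among all genes the calls ran from 1 to 319 when 1 replicate was left out, so the loss was not particular to these lists. In W303 at pH 4.5, 50 of 70 were called, or 71.4%, a share near the 69.2% of all 5501 genes (36.1% higher and 33.1% lower). In BY4741, 28 of 69 were called, or 40.6%, beside 31.4% of all 5461 genes (15.9% higher and 15.4% lower). Without replicate 3 the count was 18, and without replicate 4 it was also 18. Among all genes the BY4741 calls ran from 754 to 1389 when 1 replicate was left out. The medians over all genes tested were 0.0051, 0.026 and -0.013 in these groups. A count for a list is best read against those shares.

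Glycine and one-carbon genes, which take up serine carbon, were mostly lower in the mutant. Of 8 genes tested at pH 6.0 in W303, 3 fell (median -0.23), and without replicate 3 also 3 (median -0.16). At pH 4.5, 8 of 10 fell and 1 rose in W303 (median -0.80), and 6 of 10 fell and 2 rose in BY4741 (median -0.22). The called shares in these 3 groups were 37.5%, 90% and 80%, beside 3.36%, 69.2% and 31.4% of all genes. SHM2, the cytosolic hydroxymethyltransferase that converts serine to glycine, fell in all 3 groups, with means of -0.84 in W303 at pH 6.0, -1.14 in W303 at pH 4.5 and -0.73 in BY4741. Its mitochondrial counterpart SHM1 fell at pH 4.5, with -0.65 in W303 and -0.23 in BY4741, and had a mean of 0.12, not called, at pH 6.0 (0.26 without replicate 3). GCV2, the glycine decarboxylase of the glycine cleavage system, had means of -1.25 ± 0.11 (adjusted p = 0.010) at pH 6.0, -1.07 in W303 at pH 4.5 and -1.56 ± 0.065 (adjusted p = 9.6e-05) in BY4741 (SE, n = 4 each), all called. GCV3, for its carrier protein, had means of -0.87, -1.16 and -0.67 and fell in all 3 groups, whereas LPD1, a subunit shared with other dehydrogenase complexes, rose at pH 4.5, by 0.52 in W303 and 0.49 in BY4741. MTD1, a methylenetetrahydrofolate dehydrogenase gene, fell in W303 at pH 4.5, by 1.83 ± 0.077 (SE, n = 4, with an adjusted p of 2.8e-07). It also fell in BY4741, with a mean of -0.88, and had a mean of -0.33, not called, at pH 6.0 (-0.21 without replicate 3). Without replicate 1, 2 or 4 GCV2 was no longer called at pH 6.0, and over all its alternatives the adjusted p ran from 0.0043 to 0.17.

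Differences between groups in these genes did not all run the same way. At pH 4.5, W303 minus BY4741 was -0.95 for MTD1, -0.41 for SHM2 and -0.49 for GCV3, but 0.49 for GCV2, all 4 called by limma in a comparison that called 20.4% of all 4755 genes (10.9% higher and 9.55% lower). Between pH 6.0 and pH 4.5 in W303, where 24.0% of all genes were called (10.7% higher and 13.2% lower), 3 of 8 were called. MTD1 was higher by 1.501 (adjusted p = 4.4e-05), SHM1 was higher by 0.77 (adjusted p = 0.0029), and LPD1 was lower, at -0.49 (adjusted p = 0.0087).

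Genes for the supply of 3-phosphoglycerate and the glycolytic steps beyond it rose in W303 at pH 4.5 in 7 of 7 cases (median 0.55). There 36.1% of all genes rose. TDH1, a glyceraldehyde-3-phosphate dehydrogenase isozyme, had the largest rise, 0.89 ± 0.095 (SE, n = 4, adjusted p = 5.0e-05), and PGK1, the phosphoglycerate kinase that makes 3-phosphoglycerate, rose by 0.51. By limma 0 of 7 were called in W303 at pH 6.0 (median 0.28, or 0.33 without replicate 3, 5 at an unadjusted p below 0.05) and 0 of 7 in BY4741 (median 0.11, 0 at an unadjusted p below 0.05). These genes did not all have values of their own. On 7 of the 12 arrays 3 or more of the 7 had the same log2 ratio within 0.002, among them all 4 BY4741 arrays, 2 at pH 6.0 and 1 of W303 at pH 4.5. On BY4741 replicate 1, 5 of the 6 measured stood at -0.141, TDH2, TDH3, PGK1, ENO1 and ENO2, and on replicates 3 and 4 all but GPM1 stood at 0.087 and 0.157. TDH2, TDH3, ENO1 and ENO2 were identical on all 4 BY4741 arrays, so their BY4741 tests are 1 test repeated, which does not show that the genes did not change. The cause was not tested. None of the 5 serine genes stood at the shared value on those 7 arrays. At pH 4.5, W303 minus BY4741 was called for the 6 genes other than GPM1, all higher in W303, but those calls share nearly the same BY4741 values and are not 6 separate results. They are 6 of the 20 pathway genes called in that comparison. In W303, pH 6.0 minus pH 4.5 was called for 1 of the 7, PGK1, at -0.39, with a shared value on 1 of its pH 6.0 arrays. TDH1, TDH2 and TDH3 are also near-identical in sequence, as are ENO1 and ENO2.

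The list of genes for steps that use serine also holds CYS3, PSD1 and PSD2, which act on products of such steps. Its counts are therefore not of serine-using steps alone. Genes of this list were called in 1 of 8 cases in W303 at pH 6.0 (12.5%, beside 3.36% of all genes). Calls were made for 6 of 8 in W303 at pH 4.5 (75%, beside 69.2%) and 2 of 8 in BY4741 (25%, beside 31.4%). CHO1, for phosphatidylserine synthase, was the 1 gene of 8 called in W303 at pH 6.0, at -0.68 ± 0.12 (SE, n = 4, adjusted p = 0.047). Its call was lost under 5 of 9 alternatives, with adjusted p between 0.033 and 0.30. In W303 at pH 4.5, 5 fell and 1 rose (median -0.21), the rise being that of PSD2, a phosphatidylserine decarboxylase gene, by 0.46 ± 0.066 (SE, n = 4, with an adjusted p of 3.0e-04). In BY4741, 2 of 8 fell (median -0.09), of which CYS4, for the cystathionine synthase that joins serine to homocysteine, fell most, by 0.41 ± 0.066 (SE, n = 4, adjusted p = 0.0061).

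The 3 other genes tested for enzymes acting on serine or threonine had means nearer 0 than CHA1 in every group. SDL1, also in that list, could not be tested. It had a value on 1 array only, 3.925 on W303 pH 6.0 replicate 3, the array on which CHA1 stood at 0.45. ILV1, the biosynthetic threonine deaminase, had means of -0.40 in W303 at pH 6.0 (0.09 without replicate 3), -0.50 ± 0.078 in W303 at pH 4.5 (SE, n = 4, adjusted p = 4.8e-04) and -0.06 in BY4741. The mean in W303 at pH 4.5 alone was called, and its difference of -0.44 from BY4741 was not. GLY1, the threonine aldolase, was called in BY4741 alone of the 3 groups, at -0.63 ± 0.060 (SE, n = 4, adjusted p = 9.6e-04), with means of 0.21 and -0.11 in W303 at pH 6.0 and pH 4.5. At pH 4.5 its W303 minus BY4741 difference, 0.52, was called (adjusted p = 0.0099). SRY1, a serine racemase-like dehydratase gene, was called in no group, with means of 0.24, -0.06 and -0.12, and by limma 0 of the 3 genes tested in this list were called at pH 6.0 (1 at an unadjusted p below 0.05). In threonine synthesis HOM3, the aspartate kinase of its first step, rose in W303 at pH 6.0 (0.62, adjusted p = 0.043) and at pH 4.5 (0.43, adjusted p = 7.7e-04). The pH 6.0 call was lost under 6 of 9 alternatives, with adjusted p between 0.030 and 0.31. Of the other genes in that list 2 of 5 fell in W303 at pH 4.5, and THR1, the homoserine kinase gene, was the 1 called in BY4741 (-0.23, adjusted p = 0.048), a call lost under 6 of 9 alternatives with adjusted p between 0.020 and 0.16.

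Amino acid permeases and the genes of the amino acid sensing pathway split in direction. AGP1, a broad permease that carries serine and threonine, had means of 0.65 in W303 at pH 6.0, not called, 1.07 in W303 at pH 4.5, called, and 0.97 ± 0.059 in BY4741 (SE, n = 4, adjusted p = 2.0e-04). GAP1, the general amino acid permease, rose in W303 at pH 4.5 to a mean of 1.43 ± 0.063 (SE, n = 4, with an adjusted p of 3.4e-07) and fell by 0.52 in BY4741, and the difference of 1.95 was called (adjusted p = 7.4e-06). GNP1, a permease also listed for serine uptake, fell at pH 4.5, with -0.90 in W303 and -0.29 in BY4741, both called. Its mean at pH 6.0 was -0.15, not called (0.13 without replicate 3). DIP5, another such permease, fell in BY4741, with -0.64, called. In W303 it had means of -0.0073 at pH 6.0 (0.17 without replicate 3) and -0.0125 at pH 4.5, not called. TAT1 and TAT2, permeases of other amino acids, fell at pH 4.5, with -1.22 and -0.76 in W303 and -0.79 and -0.61 in BY4741. STP1, a transcription factor activated by external amino acids, rose at pH 4.5, by 0.75 in W303 and 0.35 in BY4741. Of the whole list, 0 of 10 were called in W303 at pH 6.0 by limma (3 at an unadjusted p below 0.05), beside 3.36% of all genes. In W303 at pH 4.5, 5 of 11 rose and 3 fell (72.7% called, near the 69.2% of all genes). In BY4741, 2 of 10 rose and 5 fell (70% called, beside 31.4%).

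Chromatin factors known to act on SER3 and SRG1 include subunits of Swi/Snf, SAGA and the Paf1 complex. In W303 at pH 6.0, 0 of 13 of their genes were called by limma, beside 3.36% of all genes (1 at an unadjusted p below 0.05, median 0.036, or 0.10 without replicate 3). In W303 at pH 4.5, 3 rose and 3 fell of 13 (46.2%, beside 69.2% of all genes, median 0.13), and PAF1 was furthest from 0 at 0.47 ± 0.070 (SE, n = 4, adjusted p = 3.6e-04). In BY4741, 1 of 14 fell (7.14%, beside 31.4% of all genes), the histone chaperone gene SPT6 at -0.30 (adjusted p = 0.017), a call lost without replicate 1, 3 or 4, with adjusted p between 0.0081 and 0.073 over its alternatives.

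The activator gene GCN4, whose product turns on amino acid synthesis genes, rose at pH 4.5, by 0.68 in W303 and by 0.56 in BY4741, and had a mean of 0.36, not called, at pH 6.0. Together with 12 of its targets it forms a list in which 1 of 13 genes fell at pH 6.0 (median 0.17). Without replicate 3 it was 3 (median 0.078). In W303 at pH 4.5, 4 rose and 6 fell (median -0.15). In BY4741, 1 rose and 7 of 12 fell (median -0.38), where the 1 that rose was GCN4 itself. The called shares in these 3 groups, with all arrays, were 7.69%, 76.9% and 66.7%, beside 3.36%, 69.2% and 31.4% of all genes. HIS4, of histidine synthesis, fell at pH 4.5, to means of -1.45 ± 0.060 (adjusted p = 2.5e-07) in W303 and -1.31 ± 0.072 (adjusted p = 1.5e-04) in BY4741 (SE, n = 4 each), and its mean at pH 6.0 was 0.19 (0.03 without replicate 3). ARG1, of arginine synthesis, rose by 0.76 in W303 at pH 4.5 and fell by 1.06 in BY4741. LYS9, of lysine synthesis, fell in all 3 groups, to -1.24 ± 0.19 at pH 6.0 (SE, n = 4, adjusted p = 0.035), where the call was lost without replicate 1, 2 or 4 and the adjusted p ran from 0.0029 to 0.30 over its alternatives.

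**Figure D4:**
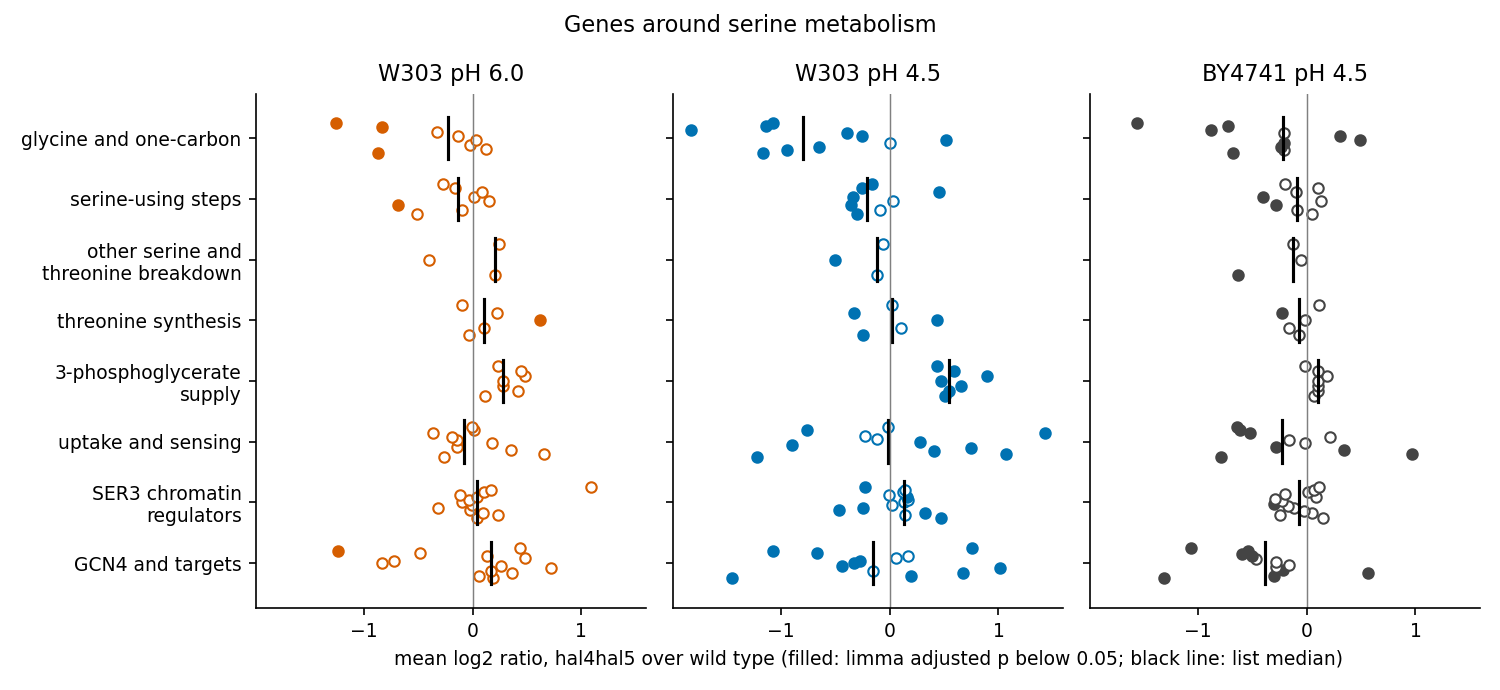
Mean log2 ratio, mutant over wild type (x axis), of each tested gene in 8 lists around serine metabolism, in W303 at pH 6.0, W303 at pH 4.5 and BY4741 at pH 4.5. Filled points passed limma at an adjusted p below 0.05, open points did not, and the black line is the list median. Glycine and one-carbon genes lie mostly left of 0. The 7 genes of 3-phosphoglycerate supply and the glycolytic steps beyond it are all filled and right of 0 in the panel of W303 at pH 4.5.

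Mating-type genes, which tell a cells from alpha cells, also differed between mutant and wild type, and their part in the results above was not tested. Of the 5 a-cell genes, 1 of 4 tested fell in W303 at pH 6.0, 3 of 5 rose and 2 fell in W303 at pH 4.5, and 2 of 5 rose and 2 fell in BY4741. Of the 4 alpha-cell genes, 1, 3 and 1 could be tested in these groups. SAG1 was the 1 tested in W303 at pH 6.0 (-0.15, not called), 1 rose and 1 fell in W303 at pH 4.5, and SAG1 rose by 0.42 in BY4741. MF(ALPHA)1, for the alpha-factor pheromone, rose by 3.06 in W303 at pH 4.5 (n = 3). There SAG1 had a mean of -0.33, called, and MF(ALPHA)2 one of -0.16, not called. Of all genes, 3.36% were called in W303 at pH 6.0, 69.2% in W303 at pH 4.5 and 31.4% in BY4741.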

How the data were processed

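Each array hybridised hal4hal5 and wild-type RNA in different dyes, and 4 arrays in each of 3 groups are named biological replicates per the labels. The authors deposited 1 log2 ratio of the 2 dyes for each open reading frame, centred near 0; base and direction were inferred, and normalisation and filters are not given in the sources used here. Replicate numbers came from the titles, as the descriptions number every array alike. The sign was turned on arrays with the mutant in Cy3, as 10 of 11 opposite-dye pairs within groups correlated negatively as deposited. Those correlations would be the same with every sign turned, so reading the result as mutant over wild type rests on the deleted genes. Genes with at least 3 values were fitted with limma 3.58.1 in R 4.3.3 (1 mean per gene in each group, or contrasts of group means over 12 arrays, empirical Bayes, Benjamini-Hochberg adjustment over all genes), in place of the one-class SAM of the design text. All tests are two-sided. SE are the moderated ones, and SD are those between arrays. The fit was tested on simulated data. The p-values measure the spread between these arrays, whose number limits the precision, and signal over background is unknown.

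The members and lists were chosen with earlier results of these data known. Named genes are the members, the deleted genes, CHA4, the neighbours of SER3 and CHA1, their 5 nearest patterns, and the called gene furthest from 0 in each list and group; the other list genes named were picked after their values were seen. Of 5994 open reading frames, 5457 matched RefSeq R64 locus tags. The alternatives were the minimum number of arrays, scaling between arrays, dye orientation as a covariate, robust moderation, a replicate block and leaving out each replicate.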

Additional observations from a re-analysis of the deposited data

Results flagged for a closer look

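Among the members, no array stood outside its group by Dixon's test at 4 samples, CHA1 at pH 6.0 included. Of 102 sets of 4 arrays examined for the named genes, 6 had 1 array far from the other 3, and chance gives about 5%. They were HAL5 on W303 pH 4.5 replicate 1 (0.42, others -0.32 to -0.21), THR1 on W303 pH 6.0 replicate 3 (1.02, others -0.08 to -0.0020), PAF1 on W303 pH 6.0 replicate 3 (-0.51, others 0.17 to 0.28), HIS4 on BY4741 replicate 4 (-1.505, others -1.27 to -1.23), CAR2 on W303 pH 4.5 replicate 2 (0.81, others 1.42 to 1.45) and VAC17 on W303 pH 4.5 replicate 1 (1.05, others 0.54 to 0.62).

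The mutant over wild type ratio of some named pathway genes differed between groups by limma contrasts. For W303 minus BY4741 at pH 4.5 the differences were 0.52 for GLY1, 0.49 for GCV2, -0.95 for MTD1, 0.44 for HOM3, 0.70 for TDH1 and 1.95 for GAP1, with adjusted p of 0.0099, 0.012, 0.0014, 0.028, 0.023 and 7.4e-06. For pH 6.0 minus pH 4.5 in W303 they were 1.501 for MTD1, 0.35 for CYS4, -0.42 for AGP1, -1.79 for GAP1 and 1.64 for HIS4, with adjusted p of 4.4e-05, 0.028, 0.028, 1.2e-05 and 2.1e-04. The BY4741 values of TDH1 are the same as those of several other glycolytic genes on each of its 3 arrays. The differences of HOM3 and TDH1 and those of CYS4 and AGP1 were each lost under 6 alternatives, and that of MTD1 between backgrounds under 1.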

How the results depend on the processing

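Of 105 alternative values for the means of the 5 genes, 97 moved by less than the SD between arrays. Leaving out 1 of 4 arrays cannot move a mean by as much as that SD, so for such values this was fixed in advance. None of the means of SER3, SER33, SER2 or CHA1 changed sign. The 8 values that moved further came from scaling the arrays to 1 spread. It gave SER2, SER3, SER33 and CHA1 means of -0.67, 0.88, 0.46 and -1.496 in W303 at pH 4.5, and of -0.53, 2.00, 0.72 and -1.79 in BY4741. With scaled arrays CHA1 was thus lower in BY4741 than in W303, the reverse of the order without scaling. SER1 at pH 6.0, near 0, had a mean of -0.016 without replicate 3. Leaving out 1 array in turn moved SER3 at pH 6.0 between 1.59 and 1.76 and CHA1 between -3.03 and -1.70.

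When 1 replicate was left out, counts of called pathway genes ran from 0 to 8 in W303 at pH 6.0. They ran from 44 to 49 in W303 at pH 4.5 and from 18 to 23 in BY4741. Among all genes the calls ran from 1 to 319, from 3243 to 3780 and from 754 to 1389 in these groups. For W303 minus BY4741 at pH 4.5, the count of 20 became 13 with the replicate block, 8 with scaled arrays and 11 to 19 without 1 replicate. For pH 6.0 minus pH 4.5, the count of 16 became 11 with the replicate block, 6 with scaled arrays and 7 to 23 without 1 replicate. Without 1 replicate the calls among all genes ran from 488 to 834 between backgrounds and from 745 to 1549 between pH values. The changes in pathway counts are therefore not particular to these genes. Deviations from the group means correlated by -0.171 to 0.209 between arrays of the same number. Whether such arrays share more than a number cannot be told from these values. The causes were not tested. Named pathway genes kept their side of the threshold in 494 of 553 alternative values, lost the call in 51 and gained it in 8, and no called value changed sign. A few arrays per group and unknown signal over background limit what can be called.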
